A study of Mus musculus with 2 samples.

Results

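Genes of the T cell checkpoint system, 10 in number, were followed through single-cell RNA sequencing of EO771-HEVM3 tumours and the paired lymph nodes. They were 5 inhibitory receptor genes (Pdcd1, Ctla4, Lag3, Havcr2 and Tigit), 4 ligand genes (Cd274, Pdcd1lg2, Cd80 and Cd86) and the transcription factor gene Tox. The 10 members were taken by symbol from the 22620 genes listed for both libraries, and each was detected in both. EO771 is a mouse mammary carcinoma line, and HEVM3 is its derivative after 3 rounds of selection in mice. Selected were lung cells labelled by light in the draining lymph node, whose outgoing lymphatic was tied. The study names them HEV metastatic, after high endothelial venules, the vessels by which lymphocytes enter the node. The kind of node vessel they left by was not marked. All animals were C57BL/6J mice bearing EO771-HEVM3 tumours, so neither library is a tumour-free control. One library held the primary tumours and the other the lymph nodes, and each was a pool of the same 6 mice that counts as 1 sample. Tumours were digested with collagenases I and III and hyaluronidase, and lymph nodes for a shorter time with collagenase P, dispase and DNase, so the tissue and its digestion cannot be told apart.

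T cells are switched on through their antigen receptor together with CD28, which binds CD80 and CD86 on antigen-presenting cells. CTLA-4 takes up the same CD80 and CD86 and restrains that signal, and regulatory T cells carry it throughout life. PD-1, the product of Pdcd1, is induced on stimulated T cells and dampens antigen receptor signalling when it meets PD-L1 (Cd274) or PD-L2 (Pdcd1lg2). LAG-3, TIM-3 (Havcr2) and TIGIT are further inhibitory receptors of stimulated T cells and NK cells, and TIM-3 is also known on dendritic cells and monocytes. TOX is needed for the lasting programme of T cells under chronic stimulation, and is also used in the thymus and in helper T cells.

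After filtering, 8719 primary tumour cells and 9689 lymph node cells remained, of 12427 and 11617 deposited. Median depth was 9361 UMIs (unique molecular identifiers, each counting 1 captured RNA molecule) per primary tumour cell and 2324 per lymph node cell. The tumour library was mostly cancer cells (6100), and the node library mostly B cells (4616) and T cells, with 605 cancer cells and 65 HEC-like endothelial cells that expressed Glycam1, Chst4 and Fut7. Levels below are UMIs of a gene per 1000000 UMIs of a cell group (CPM), with exact 95% Poisson intervals in square brackets. As there was 1 library per tissue, no test was possible, and the intervals cover counting error only and not differences between mice. Some barcodes (47) occurred in both libraries, and leaving those cells out kept each of the 85 levels of 20 or more UMIs inside its interval. Groups with under 20 cells were not compared. This left no conventional CD4 T, B or plasmacytoid dendritic cells in the tumour and no macrophages or fibroblasts in the node. T cells were called by subcluster, so a T cell group can hold cells of another subset. With cells gated one by one the tumour held 50 conventional CD4 T cells, and 343 CD8 T cells in place of 526.

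Receptors and ligands divided by cell type, as the map of levels over 26 named groups shows. Pdcd1 had no UMI in 11 of the groups, Tigit in 12 and Tox in 9, whereas Cd274 and Pdcd1lg2 were found in all 26.

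**Figure D1:**
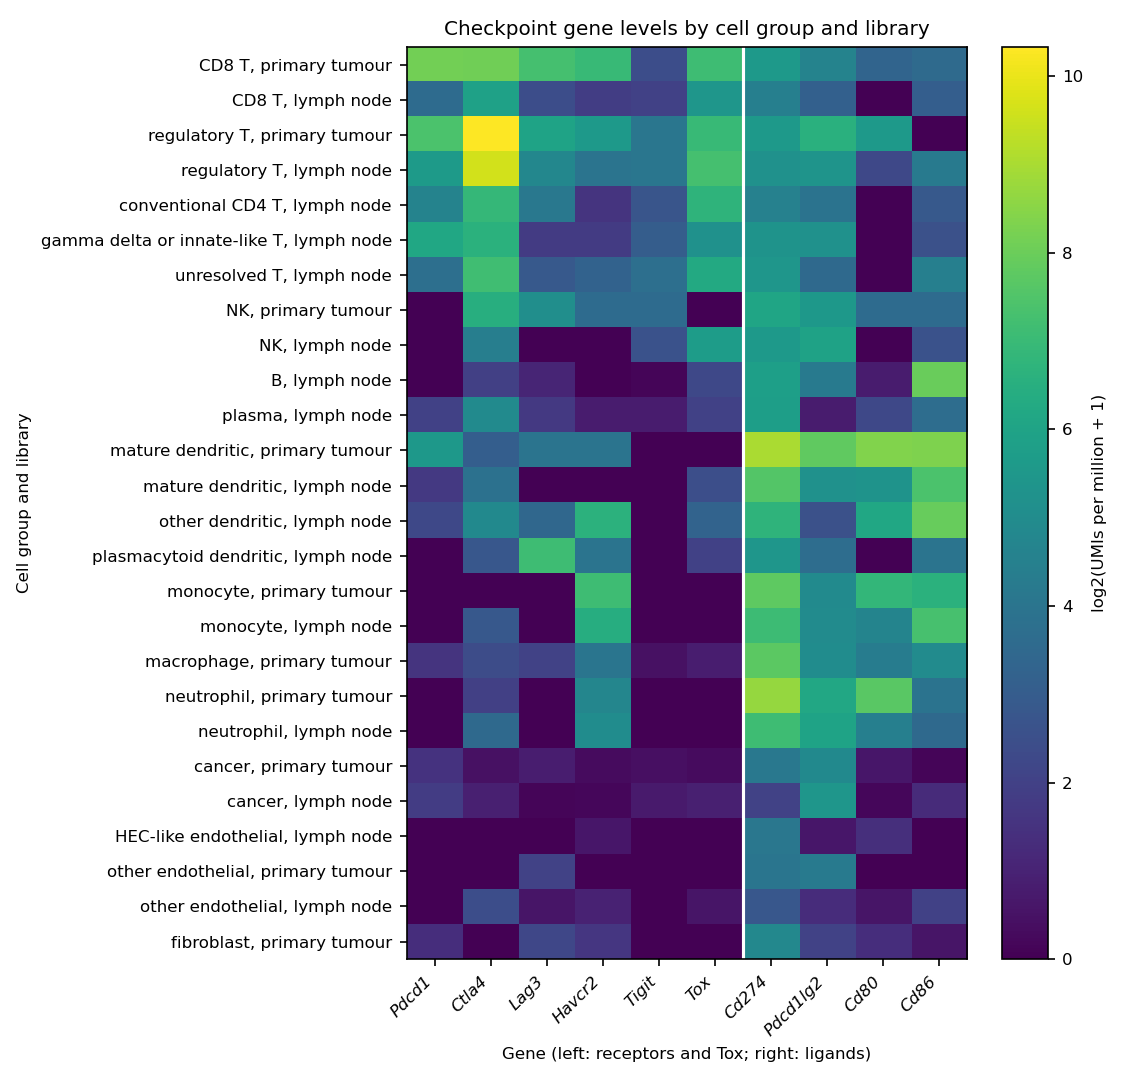
Level of each gene as log2(CPM + 1) (colour) in the 26 named groups of at least 20 cells (rows, with the library) for the receptors and Tox (left of the white line) and the ligands (right). The highest value is Ctla4 in primary tumour regulatory T cells, at 1287 CPM, and the ligand genes are brightest in primary tumour mature dendritic cells.

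The files give no coordinates. In the GENCODE annotation of GRCm38, the build in the submitters' processing notes, Cd274 lay at chr19:29367455-29388095 and Pdcd1lg2 at chr19:29410919-29471161, both on the plus strand with 22823 bases between them. Pdcd1 lay at chr1:94038305-94052553 on the minus strand, Ctla4 at chr1:60887000-60915832 on the plus strand and Havcr2 at chr11:46454935-46481255 on the plus strand. Lag3 was at chr6:124904361-124911705, Tigit at chr16:43648867-43664146, Cd86 at chr16:36603869-36666081 and Tox at chr4:6686353-6991557, all 4 on the minus strand, and Cd80 at chr16:38455561-38496335 on the plus strand. Cd274, Pdcd1lg2 and Tox each overlap an antisense gene, and Ctla4 overlaps a ribosomal protein pseudogene on its own strand.

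The 4 start regions shown belong to 4 of the genes the comparisons turn on, the neighbouring ligand genes that differed in opposite directions in cancer cells and a pair of receptor genes that differed in CD8 T cells. Each is the 250 bases before the RefSeq start (GRCm38.p6) in the gene's own direction, at chr19:29367188-29367437 for Cd274, chr19:29410669-29410918 for Pdcd1lg2, chr1:94052554-94052803 for Pdcd1 and chr11:46454681-46454930 for Havcr2. The table used held a start region for 7 of the 10 members and none for Lag3, Cd86 and Tox. Capitals mark matches to any of 5 short motifs on either strand.
Cd274: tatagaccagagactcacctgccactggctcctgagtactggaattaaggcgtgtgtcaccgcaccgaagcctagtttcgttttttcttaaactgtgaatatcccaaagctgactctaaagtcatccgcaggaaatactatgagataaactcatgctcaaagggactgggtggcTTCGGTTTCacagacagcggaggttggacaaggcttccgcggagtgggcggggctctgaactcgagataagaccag
Pdcd1lg2: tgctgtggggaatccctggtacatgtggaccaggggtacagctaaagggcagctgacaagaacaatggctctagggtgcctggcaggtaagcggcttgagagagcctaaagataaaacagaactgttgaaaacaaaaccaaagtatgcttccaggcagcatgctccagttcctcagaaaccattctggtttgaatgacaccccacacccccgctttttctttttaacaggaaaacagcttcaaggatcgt
Pdcd1: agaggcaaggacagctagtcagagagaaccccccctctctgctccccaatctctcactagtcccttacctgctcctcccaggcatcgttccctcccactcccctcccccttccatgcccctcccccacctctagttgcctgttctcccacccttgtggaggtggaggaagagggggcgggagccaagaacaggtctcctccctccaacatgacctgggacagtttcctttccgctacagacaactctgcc
Havcr2: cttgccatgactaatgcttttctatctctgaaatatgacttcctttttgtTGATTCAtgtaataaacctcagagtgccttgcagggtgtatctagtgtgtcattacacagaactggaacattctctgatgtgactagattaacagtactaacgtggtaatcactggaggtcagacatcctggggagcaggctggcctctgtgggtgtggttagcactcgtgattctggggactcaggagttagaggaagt

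The motifs searched were TTCNNNGAA (the STAT core), GAAANNGAA (part of the interferon-stimulated response element), TGANTCA (the AP-1 core), TGGAAA (the NFAT core) and TATAAA (the TATA box). Cd274 held 1 match to GAAANNGAA, read on the opposite strand and beginning 76 bases before the start, a motif found in 7.13% of all 32851 RefSeq start regions of this length. Pdcd1lg2 and Pdcd1 held none of the 5. Havcr2 held 1 match to TGANTCA, beginning 200 bases before the start, a motif found in 6.75% of start regions. Of the regions not shown, Ctla4 also held a match to GAAANNGAA, beginning 166 bases before the start. It held 1 to TGGAAA as well, 144 bases before, a motif found in 18.6% of start regions. Cd80 held 1 match to TGANTCA, 42 bases before the start, and Tigit held none of the 5. A match is a string of letters and not a shown binding site.

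Among the receptors, Pdcd1 was high in CD8 T cells of the tumour and nearly absent from those of the node. Primary tumour CD8 T cells had 313 Pdcd1 UMIs in 526 cells, 281 [251 to 314] CPM, and lymph node CD8 T cells had 75 UMIs in 1757 cells, 11.2 [8.83 to 14.1] CPM. The level was 25.1-fold higher in the tumour (log2 lymph node over primary tumour -4.64 [-5.03 to -4.28]). After thinning each cell to 1000 UMIs, 23.6% [19.6 to 27.9] of 416 tumour CD8 T cells still had a Pdcd1 UMI, against 1.06% [0.654 to 1.69] of 1753 in the node. Before thinning they were 37.5% and 2.50%. The median cell had 1589.5 UMIs in the tumour group and 3502 in the node group. The thinned share in cancer cells, which should lack the gene, was 0.197% in the tumour and 0.253% in the node, where the median cell had 14057.5 and 35073 UMIs.

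Next in the order of Pdcd1 levels came primary tumour regulatory T cells with 170 [85.1 to 305] CPM from 11 UMIs, an interval that overlaps that of tumour CD8 T cells. Lymph node gamma delta or innate-like T cells followed at 70.5 [47.2 to 101] CPM and lymph node regulatory T cells at 48.5 [38.4 to 60.6] CPM, which overlap each other. Mature dendritic cells of the tumour had 44.8 [16.4 to 97.5] CPM from 6 UMIs, and conventional CD4 T cells of the node stood at 23.8 [19.0 to 29.4] CPM. No Pdcd1 UMI was found in B cells, NK cells, monocytes, neutrophils, plasmacytoid dendritic cells or endothelial cells.

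Havcr2 and Lag3 had the largest folds among the members with at least 20 UMIs in CD8 T cells. The intervals of their ratios overlapped each other and that of Pdcd1, so the order of these folds was not resolved. Havcr2 had 138 UMIs in the tumour, 124 [104 to 146] CPM, and 18 in the node, 2.69 [1.60 to 4.26] CPM, which is 46.0-fold higher in the tumour (log2 ratio -5.49 [-6.32 to -4.81]). Lag3, whose product binds MHC class II, had 171 UMIs in tumour CD8 T cells, 154 [131 to 178] CPM, and 30 in node CD8 T cells, 4.49 [3.03 to 6.41] CPM, 34.2-fold higher in the tumour (log2 ratio -5.08 [-5.71 to -4.53]). For each of these genes the tumour interval lay wholly above that of the node. Their thinned shares were 9.91% and 0.165% of CD8 T cells for Havcr2, and 13.8% and 0.394% for Lag3, with at most 0.0792% in cancer cells.

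Ctla4 was expressed in CD8 T cells of both tissues and differed less. Tumour CD8 T cells had 270 [241 to 303] CPM and node CD8 T cells 59.1 [53.4 to 65.2] CPM, 4.57-fold higher in the tumour (log2 ratio -2.19 [-2.41 to -1.97]). Tox had 139 [118 to 163] CPM and 41.8 [37.0 to 46.9] CPM, 3.33-fold higher in the tumour (log2 ratio -1.74 [-2.03 to -1.44]). The Tigit levels, 4.49 [1.46 to 10.5] CPM from 5 UMIs and 2.99 [1.83 to 4.62] CPM from 20 UMIs, overlapped, and a difference was not detectable at this depth.

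Of the 9 members with at least 20 UMIs over both libraries in CD8 T cells, 7 were past 2-fold, all higher in the tumour. Among all 9366 genes so counted, 38.3% were past 2-fold and 32.1% were past it with the tumour higher. The members' median log2 ratio was -1.74 and that of all genes -0.55, a shift towards the tumour that reached most genes. Relative to that shift 6 of the 9 members were past 2-fold. The 38.3% is not centred in this way, so that count has no matching share of all genes here. Besides the 4 receptors and Tox, the 7 included Cd274, at 45.8 CPM in the tumour and 20.9 in the node, and Pdcd1lg2, at 23.4 and 7.93 CPM.

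CD8 T cells of the tissues came from different clusters, although the members took no part in the clustering. In the tumour 3 subclusters held 519 of the 526 cells, and in the node 4 others held 1734 of the 1757. These are not pure CD8 groups. Cd4 was 89.2, 38.7 and 57.0 CPM in the 3 (both libraries together), and 5.42, 10.4, 3.18 and 56.7 CPM in the 4 others. Foxp3 reached 21.9 CPM in the largest of the 3. The part of other T cells in the CD8 levels below and above was not tested by subcluster. Over the tumour subclusters Pdcd1 ran from 245 to 421 CPM, Lag3 from 105 to 245, Havcr2 from 47.4 to 202 and Tox from 127 to 163. Over the node subclusters the same genes ran from 2.88 to 18.4, 1.15 to 10.2, 0 to 0.957 and 24.01 to 71.6 CPM, below every tumour subcluster. The ranges overlapped for Ctla4, at 85.9 to 653 CPM in the tumour and 28.0 to 192 CPM in the node, and for Tigit, at 4.29 to 5.27 and 0 to 4.80 CPM.

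The other 23 CD8 T cells of the node fell in the 3 subclusters that held the tumour cells, and they carried much of the node's signal. Of its 18 Havcr2 UMIs 13 were in them, at 176 CPM, as were 26 of the 75 Pdcd1 UMIs, at 352 CPM, and 12 of the 30 Lag3 UMIs, at 162 CPM. In the 1734 remaining node cells Havcr2 was 0.757 CPM, Pdcd1 7.41 CPM and Lag3 2.72 CPM, while Ctla4 (57.3 CPM) and Tox (41.3 CPM) were close to the levels over all node CD8 T cells.

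Within the tumour, the CD8 subcluster of 78 cells led by Gzmf, Irf8 and Ppp1r3b had the highest levels of Pdcd1 (421 [342 to 513] CPM), Ctla4 (653 [553 to 765] CPM), Lag3 (245 [185 to 317] CPM) and Havcr2 (202 [148 to 268] CPM). The largest tumour subcluster, 279 cells led by Csf1, Klrd1 and Ccl4, had 85.9 [65.3 to 111] CPM of Ctla4. The shallowest of the 3, 162 cells led by Cxcr4, Gramd3 and Emb with a median of 1016.5 UMIs, had 474 [381 to 583] CPM of Ctla4 and 47.4 [21.7 to 90.0] CPM of Havcr2. Ctla4 therefore varied more than the other receptors among tumour CD8 subclusters, while the Tox intervals of the 3 overlapped.

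**Figure D2:**
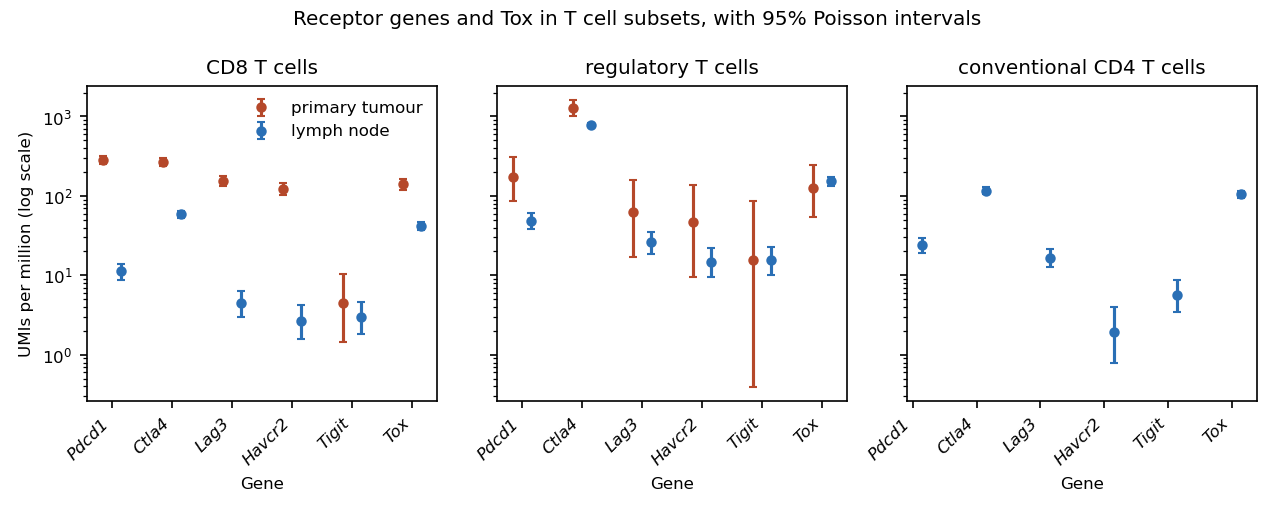
Level of the 5 receptor genes and Tox (CPM, log axis) in CD8, regulatory and conventional CD4 T cells of each library, with 95% Poisson intervals. Called by subcluster, conventional CD4 T cells were too few in the tumour. In CD8 T cells Pdcd1, Lag3 and Havcr2 are separated by more than 10-fold, and in regulatory T cells the intervals of Lag3, Havcr2, Tigit and Tox overlap.

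Regulatory T cells, the subcluster high in Foxp3, had the highest Ctla4 of any group. Their Ctla4 was 1287 [1025 to 1595] CPM in the tumour, from 83 UMIs in 39 cells, and 778 [735 to 822] CPM in the node, from 1249 UMIs in 344 cells (log2 ratio -0.73 [-1.05 to -0.39]). This difference depended on the grouping, because with each library clustered on its own the levels were 734 in the tumour and 840 in the node (log2 ratio 0.19). The thinned shares, 54.1% [30.6 to 73.2] of 23 tumour cells and 52.4% [47.0 to 57.9] of 339 node cells, overlapped. In the tumour regulatory T cells 4 mast cell markers, all detected, summed to 1132 CPM and 8 cancer markers, 2 of them at 0, to 651 CPM, against 1.25 and 74.7 CPM in the node. Their part in these results was not tested.

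Pdcd1 in regulatory T cells was 3.51-fold higher in the tumour (log2 ratio -1.87 [-2.73 to -0.75]). Lag3 had 4 UMIs in the tumour cells and 42 in the node cells, and Havcr2 had 3 and 24, with intervals of the log2 ratio that included 0 (-2.71 to 0.69 and -3.36 to 0.74). Tox, at 124 [53.5 to 244] and 154 [135 to 174] CPM, and Tigit, at 15.5 and 15.6 CPM, also overlapped. Of the 9 members counted in regulatory T cells 5 were past 2-fold, where 38.8% of 6635 genes were, and 1 of the 5 was Cd86, which had 28 UMIs in the node and 0 in the tumour. With 39 tumour cells, 0 UMIs allows up to 46.5 CPM.

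Tigit was low everywhere. Its highest level, in lymph node regulatory T cells, was 15.6 [10.1 to 23.0] CPM, and the intervals of 13 other groups overlapped it. Most of the 40 Tigit UMIs kept in the tumour (80.0%) came from the far more numerous cancer cells, at 0.331 CPM.

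Conventional CD4 T cells of the node held 1 subcluster that stood apart in the receptor genes. Its 186 cells, led by Tnfsf8, Eea1 and Gpm6b, had 111 [87.9 to 139] CPM of Pdcd1, 350 [307 to 397] CPM of Ctla4, 85.3 [65.0 to 110] CPM of Lag3 and 223 [189 to 261] CPM of Tox. The other 2 conventional CD4 subclusters had 3.25 and 1.38 CPM of Pdcd1 and no Lag3 UMI. Havcr2 in the high subcluster was 10.1 [4.07 to 20.9] CPM, against 202 in the highest tumour CD8 subcluster. This subcluster carried 77 of the 85 Pdcd1 UMIs and all 59 Lag3 UMIs of the node's conventional CD4 T cells.

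Lag3 and Havcr2 were also found outside T cells. Plasmacytoid dendritic cells of the node, the main producers of type I interferon, had 137 [100 to 183] CPM of Lag3, which overlapped the level in tumour CD8 T cells, with UMIs in 30 of 66 cells. Havcr2 was highest in tumour monocytes at 139 [92.6 to 201.4] CPM, with node monocytes at 85.7 [46.9 to 144] CPM and the dendritic cells of the node that were called neither mature nor plasmacytoid at 99.6 [79.0 to 124] CPM. These intervals overlapped one another and that of tumour CD8 T cells. Mature dendritic cells of the node had no Havcr2 UMI in 98 cells, which allows up to 6.82 CPM.

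Single cells were also examined for more than 1 receptor gene. After thinning to 1000 UMIs, 50.1% [45.1 to 54.9] of tumour CD8 T cells had a UMI of at least 1 of the 5 receptor genes, against 6.90% [5.76 to 8.19] in the node. UMIs of 2 or more were found in 15.4% [12.05 to 19.2] and 0.278% [0.0927 to 0.664]. Regulatory T cells with 2 or more made up 14.8% [2.77 to 33.6] in the tumour and 6.94% [4.59 to 10.3] in the node, and those intervals overlapped. In cancer cells the share with 2 or more was at most 0.00280%. Without thinning, 32.1% of tumour CD8 T cells and 1.65% of node CD8 T cells had 2 or more.

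In tumour CD8 T cells, Pdcd1 and Ctla4 were found together in 6.504% of the thinned cells, where the product of the single shares was 4.84%. Pdcd1 and Lag3 were found together in 4.18% (product 3.26%) and Lag3 and Havcr2 in 2.11% (product 1.37%). Pdcd1 and Havcr2, at 2.24% and 2.33%, and Ctla4 and Lag3, at 2.97% and 2.84%, lay close to the product. These shares are descriptions, since cells differ in depth above the thinned number and in subcluster.

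**Figure D3:**
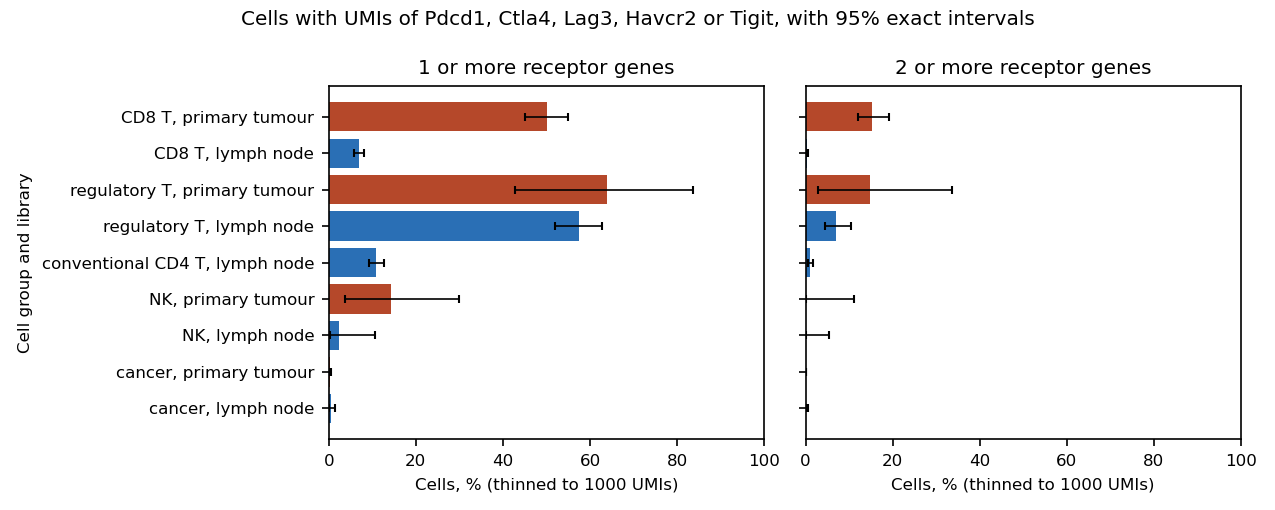
Share of cells (%, thinned to 1000 UMIs) with UMIs of 1 or more (left) and of 2 or more (right) of Pdcd1, Ctla4, Lag3, Havcr2 and Tigit, by group and library, with exact 95% intervals. Tumour CD8 T cells reach 50.1% and 15.4%, and the points of the cancer cells lie at or under 0.438%.

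Other receptor and T cell state genes were taken as lists, whose counts are given with their medians. Counts of a list in CD8 T cells are to be read beside the shares of all 9366 genes. Of these, 32.1% were past 2-fold with the tumour higher and 6.2% with the node higher. Of 7 other inhibitory receptor genes counted in CD8 T cells, 5 were past 2-fold with the tumour higher and none with the node higher (median log2 ratio -1.55, against -0.55 for all genes). Their lowest ratios were those of Cd200r1 (23.4 CPM in the tumour and 0.599 in the node) and Klrc1 (354 and 14.4 CPM), which encodes the NK cell receptor NKG2A. The highest were those of Btla (3.59 and 7.33 CPM) and Cd160 (15.3 and 10.6 CPM).

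Costimulatory receptor genes stood on the same side, with 5 of 7 past 2-fold in the tumour, where 32.1% of 9366 genes were. Their median log2 ratio was -2.02. Tnfrsf9, the gene of the activation marker 4-1BB, had 426 CPM in the tumour and 15.9 in the node, and Tnfrsf4 (OX40) had 99.7 and 9.88. Cd28 (456 and 228 CPM) and Cd27 (129 and 242 CPM) had the highest ratios. In regulatory T cells 2 of 7 costimulatory genes and 1 of 4 inhibitory receptor genes were past 2-fold in the tumour, near the 23.0% of 6635 genes that were.

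Other ligand genes counted in CD8 T cells numbered 6, of which 5 were past 2-fold with the tumour higher and 1 with the node higher (median log2 ratio -1.58). Among all 9366 genes 32.1% and 6.2% were. Tnfsf4 (OX40 ligand) had 8.98 CPM in the tumour and 1.65 in the node, Cd200 8.98 and 2.39, Cd47 449 and 166, and Pvr, a ligand of TIGIT, 9.88 and 23.6.

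Of 10 exhaustion and activation genes, 6 were past 2-fold with the tumour higher in CD8 T cells and none with the node higher (median log2 ratio -2.48). Among all 9366 genes 32.1% and 6.2% were. Cxcr6, a chemokine receptor gene of tissue T cells, had 936 CPM in the tumour and 12.9 in the node, and Entpd1 (CD39) had 68.3 and 1.20. Nr4a1 (53.0 and 71.7 CPM) and Nr4a3 (116 and 214 CPM), which are induced by antigen receptor signals, had the highest ratios. Naive and memory genes lay on the other side, with 7 of 8 past 2-fold in the node, where 6.2% of 9366 genes were (median log2 ratio 2.35). Ccr7, which guides naive T cells into lymph nodes, had 27.8 CPM in the tumour and 678 in the node, Slamf6 had 28.7 and 73.2, and Il7r 212 and 421.

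Of the ligands, Cd274 was highest in myeloid cells of the tumour. Primary tumour mature dendritic cells, the Fscn1-high migratory state, had 515 [401 to 652] CPM from 69 UMIs in 32 cells, and tumour neutrophils had 412 [347 to 485] CPM from 144 UMIs in 306 cells, and these overlap. Tumour monocytes (214 [155 to 288] CPM), tumour macrophages (213 [195 to 231] CPM) and node mature dendritic cells (186 [148 to 232] CPM) followed without separation. Node neutrophils had 138 [73.2 to 235] CPM and node monocytes 135 [84.4 to 204] CPM. B cells had 56.0 [51.4 to 60.9] CPM and, through their number, 42.7% of the Cd274 UMIs of the node.

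Tumour macrophages were not uniform in Cd274. The cluster of 374 cells led by Ccl8, Mrc1 and C1qa had 284 [256 to 313] CPM and the cluster of 242 cells led by Lpl, Cxcl5 and Gpnmb had 128 [108 to 150] CPM. Endothelial cells lay far lower, at 15.9 [10.7 to 22.9] CPM in HEC-like cells of the node, 5.92 [3.06 to 10.3] CPM in its other endothelial cells and 15.3 [4.96 to 35.7] CPM in those of the tumour. No HEC-like cell was found in the tumour, so that state could not be compared.

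**Figure D4:**
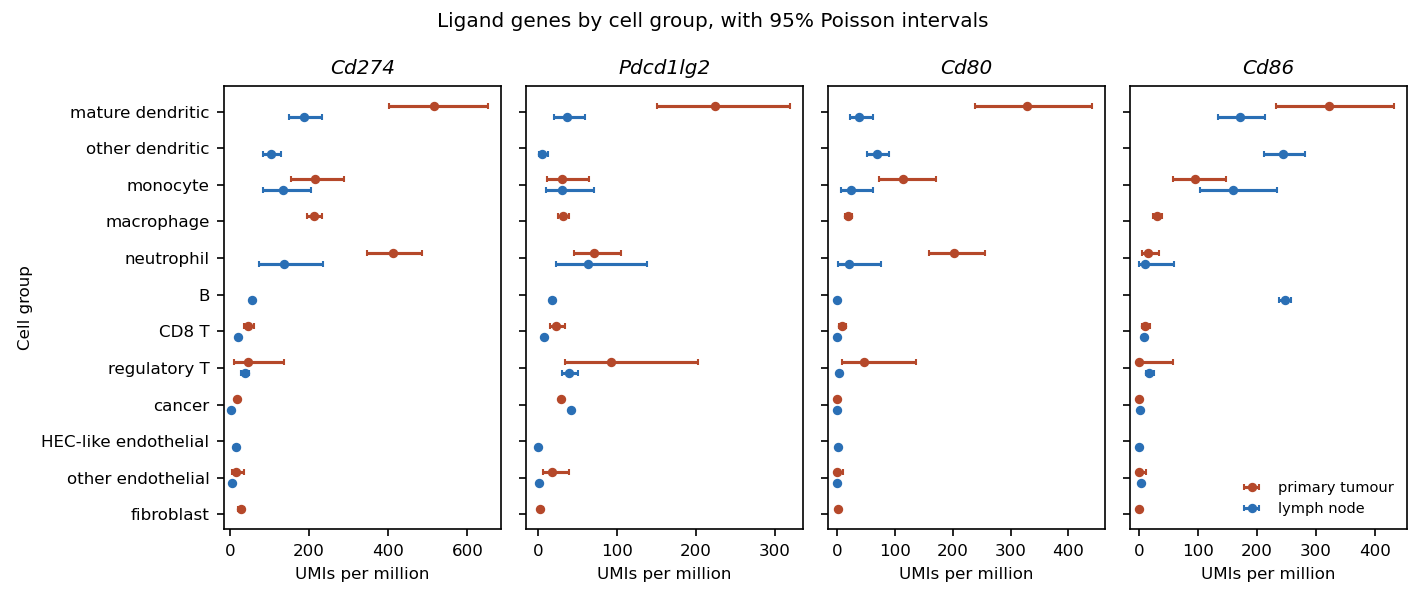
Levels of Cd274, Pdcd1lg2, Cd80 and Cd86 (CPM, linear axes that differ between panels) in 12 cell groups of the primary tumour (red) and the lymph node (blue), with 95% Poisson intervals. All 4 are higher in mature dendritic cells of the tumour, and B cells stand out only for Cd86.

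Mature dendritic cells carried more of all 4 ligand genes in the tumour than in the node. Cd80 had 328 [239 to 441] and 38.7 [22.5 to 61.9] CPM, 8.497-fold higher in the tumour (log2 ratio -3.06 [-3.99 to -2.25]). Pdcd1lg2 had 224 [151 to 320] and 36.4 [20.8 to 59.1] CPM, 6.16-fold higher (log2 ratio -2.60 [-3.60 to -1.70]). Cd274 was 2.76-fold higher (log2 ratio -1.47 [-1.95 to -0.98]) and Cd86, at 321 [232 to 432] and 171 [134 to 214] CPM, 1.88-fold higher (log2 ratio -0.92 [-1.47 to -0.34]). Thus 3 of the 4 members counted were past 2-fold, where 22.0% of 3304 genes were.

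All 32 tumour cells fell in 1 of the 2 mature dendritic subclusters, which also held 33 of the 98 node cells. Within it the log2 ratios were -1.91 [-3.12 to -0.95] for Cd80, -1.67 [-3.07 to -0.57] for Pdcd1lg2, -1.59 [-2.41 to -0.88] for Cd274 and -0.78 [-1.60 to -0.02] for Cd86, all still on the tumour side. The Cd80 fold was then 3.90 in place of 8.497, as the node-only subcluster had 21.8 CPM and the shared one 84.3 CPM in its node cells. Clustering each library on its own gave no subcluster with enough mature markers, so this comparison has no value there.

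Neutrophils differed between the tissues in Cd274 and Cd80. Cd80 had 203 [159 to 256] CPM from 71 UMIs in tumour neutrophils and 21.2 [2.56 to 76.4] CPM from 2 UMIs in those of the node (log2 ratio -2.95 [-6.34 to -1.36]), and Cd274 was 2.99-fold higher in the tumour (log2 ratio -1.53 [-2.53 to -0.76]). Pdcd1lg2, at 71.5 and 63.5 CPM, overlapped, so 2 of the 3 members counted were past 2-fold, where 38.9% of 2605 genes were. Tumour neutrophils were shallow, with a median of 729 UMIs, and 8 cancer markers, 1 of them at 0, summed to 1927 CPM in them and to 84.6 CPM in those of the node. In node neutrophils 4 mast cell markers, all detected, summed to 2402 CPM, against 2.86 CPM in the tumour. Cancer cells of the tumour had 0.548 CPM of Cd80 and 16.7 CPM of Cd274. The part of the cancer and mast cell markers, or of RNA from other cells, in these results was not tested.

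In monocytes only Cd80 was past 2-fold of the 4 members counted, at 114 [72.5 to 172] CPM in the tumour and 24.5 [6.67 to 62.7] CPM in the node, where 25.8% of 2695 genes were past it. Cd86 had 94.5 [56.9 to 148] CPM in tumour monocytes and 159 [104 to 233] CPM in node monocytes, and the interval of its log2 ratio, 0.74 [-0.16 to 1.69], included 0. With each library clustered on its own, monocytes numbered 504 and 134 rather than 85 and 29, and 4 of 5 members were past 2-fold. The 25.8% does not apply to that grouping, and no share of all genes is given for it. Tumour macrophages had 19.5 [14.5 to 25.7] CPM of Cd80 and 30.4 [24.1 to 38.0] CPM of Cd86, below tumour monocytes for each gene.

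B cells of the node were a main source of Cd86. They had 2421 Cd86 UMIs in 4616 cells, 248 [238 to 258] CPM, which overlapped the other dendritic cells of the node at 244 [211 to 281] CPM and tumour mature dendritic cells at 321. Its thinned share in B cells was 21.5% [20.3 to 22.8], against 0.598% in conventional CD4 T cells, which should lack it. Cd80 in the same B cells was 0.716 [0.288 to 1.48] CPM from 7 UMIs. The Cd86 level was 273 [261 to 286] CPM and 235 [215 to 255] CPM in the 2 largest B cell clusters.

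Through their number and depth, cancer cells held most of the Pdcd1lg2 UMIs kept in both libraries and 50.7% of the Cd274 UMIs kept in the tumour. Of the deposited Pdcd1lg2 UMIs, 3083 of 4637 were kept in the tumour and 1264 of 3660 in the node, so most of the node's lay in cells that the filters removed. They held 2806 of its UMIs in the tumour (91.0% of those kept) and 845 in the node (66.8%), at 29.0 [27.9 to 30.1] and 41.6 [38.9 to 44.5] CPM. The level was thus 1.44-fold higher in node cancer cells (log2 ratio 0.52 [0.41 to 0.63]). Without the upper limit on genes the levels were 27.3 CPM in the tumour and 42.5 CPM in the node. Node cancer cells then numbered 443 in place of 605, and unnamed node cells 930 in place of 59, with a median of 50749 UMIs. Those levels therefore leave out the deep node cells that stayed unnamed. With each library clustered on its own, node cancer cells numbered 334, and 316 node cells with a median of 35921 UMIs stayed unnamed. Cd274 differed the other way, with 1615 UMIs, 16.7 [15.9 to 17.5] CPM, in the tumour and 63 UMIs, 3.10 [2.38 to 3.97] CPM, in the node, 5.38-fold higher in the tumour (log2 ratio -2.42 [-2.81 to -2.06]). The thinned shares of cancer cells with a Pdcd1lg2 UMI were 2.66% in the tumour and 4.02% in the node, and those with Cd274 1.82% and 0.364%.

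Cancer cells of the tissues fell mostly in different clusters. One cluster of 512 cells, led by Id1, Tff2 and Krt7, held most of the node's 605, and it had 1.42 CPM of Cd274 and 40.2 CPM of Pdcd1lg2. The 7 tumour clusters ran from 5.37 to 27.1 CPM for Cd274 and from 7.31 to 78.5 CPM for Pdcd1lg2. Pdcd1lg2 was highest in the 2 tumour clusters that carried the trefoil factor gene Tff2 among their leading genes (78.5 [72.4 to 84.9] and 70.1 [65.5 to 75.0] CPM), while Cd274 was highest, at 27.1 CPM, in the cluster led by Mt4, Nupr1 and Slurp1, which had 21.6 CPM of Pdcd1lg2. The cycling cluster led by Cenpf, Ube2c and Aurka had the lowest Cd274 of the tumour, 5.37 CPM.

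One cluster, led by Tff1, Tff2 and Alb, held at least 20 cancer cells of each tissue, 802 of the tumour and 47 of the node. Within it Cd274 had 18.4 CPM in the tumour and 24.96 in the node (log2 ratio 0.47 [-0.20 to 1.03]), and Pdcd1lg2 70.1 and 57.6 CPM (log2 ratio -0.27 [-0.69 to 0.10]). Both intervals included 0, and neither followed the direction seen over all cancer cells.

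**Figure D5:**
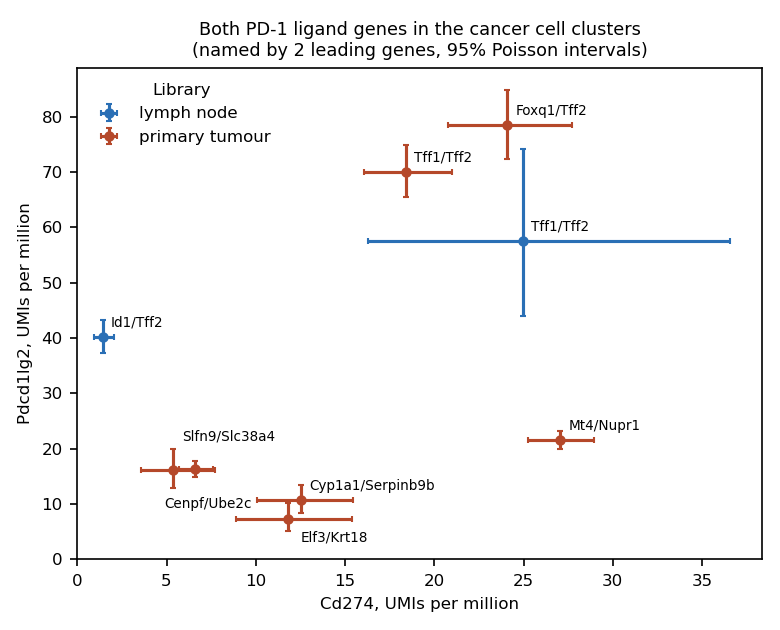
Cd274 (x axis) against Pdcd1lg2 (y axis), both in CPM, in the 9 cluster and library combinations of at least 20 cancer cells, labelled by their first 2 leading genes, with 95% Poisson intervals. The main node cluster (Id1/Tff2) lies at 1.42 and 40.2, apart from all tumour clusters, while the Tff1/Tff2 cells of the node lie near those of the tumour.

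Of the 10 members 7 were past 2-fold in cancer cells, where 19.3% of 12504 genes were, but the receptor genes and Tox stayed at or under 2.61 CPM in both tissues. Cd86 had 1.43 CPM in node cancer cells and 0.114 in tumour cancer cells, below the 6.44 CPM of conventional CD4 T cells. B cell markers summed to 49.4 CPM in node cancer cells and 0.858 in tumour cancer cells, and their part in the Cd86 difference was not tested. Of the 7, only Cd274 exceeded 2 CPM in cancer cells of either tissue.

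For each member the 3 other genes with the most similar levels over the 26 groups were found by Pearson's r of log2(CPM + 10), as a description. Ctla4 was nearest to Cd6 (r = 0.938), Ikzf2 (0.929) and Izumo1r (0.922), Tigit to Ikzf2 (0.901), Ntrk3 and Trat1, and Tox to Camk4 (0.951), Sh2d1a and Xlr4b. Pdcd1 was nearest to Podnl1 (0.894), Cd6 and Sv2c, Lag3 to Rps6ka1 (0.829), Rab27a and Sytl1, and Havcr2 to Il10ra (0.751), Trpv2 and Abr. Cd274 and Cd80 shared Bcl2a1a as the nearest gene (0.890 and 0.869), followed by Mthfs and Clec7a for the former and Ehd1 and Cflar for the latter. Cd86 was nearest to Icosl (0.860), Cd83 and Irf5, and Pdcd1lg2 to Slc9a3r1 (0.758), Rhog and Arpc5. Between members, Ctla4 with Tigit (0.901) and Cd274 with Cd80 (0.858) were the most alike of the receptor and ligand pairs, over groups that share a library and differ in depth. Some likenesses rest on few counts. Podnl1 and Ntrk3 were highest at 15.5 CPM and Sv2c at 46.5 CPM, in the 39 tumour regulatory T cells, where 1 UMI is 15.5 CPM.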

How the data were processed

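Cells of primary tumours and paired lymph nodes, each pooled from 6 mice, were sequenced as 2 droplet libraries. The deposited matrices hold UMI counts per gene and cell, made by the authors with Cell Ranger. The submitters' processing notes give version 2.1.1 and GRCm38, and the file headers give 5.0.0. Total depth was 173317475 UMIs in the tumour library and 122207852 in the lymph node library. The study's methods name DoubletFinder for doublets, after limits on genes and mitochondrial UMIs that the deposited matrices do not show, so doublets were called again here.

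The members and gene lists were chosen with earlier results of these data known, and the rule for naming clusters was set after the data were seen. Cells with 200 or fewer genes, more than 6000 genes or above 5% mitochondrial UMIs were dropped, and the deposited counts still held cells above both upper limits. Scrublet (scanpy 1.11.5, expected rate 6%, 30 components) removed 428 tumour cells. Its automatic threshold marked 3 node cells, too few to have worked, so the 616 cells above the 94th percentile were removed. Both libraries were clustered together on 2000 variable genes per library, without the members and the lists, with 30 principal components, 15 neighbours and Leiden clustering (igraph 0.11.9, resolution 1.0) after regression of cell cycle scores (gene lists of Seurat 5.3.0). Clusters were named from markers, and 660 tumour and 59 node cells stayed unnamed. T cell subclusters with at least 100 CPM of Foxp3 were called regulatory, those with at least 100 CPM of Trdc gamma delta or innate-like, and the rest CD8 or conventional CD4 where one exceeded the other 3-fold (142 node cells were unresolved).

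Levels (CPM) are UMIs per 1000000 UMIs of a group. Ratios add 0.5 UMI to each sum, with the exact interval of the split of both counts, and were counted for genes with at least 20 UMIs over both libraries. A gene is called past 2-fold. Shares are expected values after thinning to 1000 UMIs, without shallower cells, with exact Clopper-Pearson intervals of the rounded count, and a count of 0 allows 3. The formulas were checked on simulated data. Named genes were the 10 members, the 2 highest and 2 lowest ratios of each list in CD8 T cells, and the 3 genes most like each member. One gene that this rule names is not reported here. Alternatives varied the mitochondrial limit, gene limit, doublets, clustering, T cell gating, shared barcodes, centring, count minimum and thinning. Exact intervals came from scipy 1.17.1 (python 3.11.15).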

Additional observations from a re-analysis of the deposited data

Results flagged for a closer look

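Pdcd1lg2 differed between the tissues in opposite directions in different cell types. It was higher in node cancer cells (log2 lymph node over primary tumour 0.52) and lower in node mature dendritic cells (-2.60) and node CD8 T cells (-1.57), and the difference between these cell types was not tested, as there was 1 library per tissue. Within the single cluster shared by cancer cells of both tissues the higher level in the node was not seen (-0.27 [-0.69 to 0.10]). In CD8 T cells the values were 23.4 and 7.93 CPM, from 26 and 53 UMIs.

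A cluster of 194 tumour cells that stayed unnamed had a Cd274 level above that of each named group, with an interval that overlapped the highest of them. It was led by Spic, Ace, Treml4 and Adgre4, and had 655 [573 to 746] CPM of Cd274, against 515 [401 to 652] CPM in tumour mature dendritic cells. The same cells had 160 CPM of Havcr2, 174 CPM of Cd80 and 226 CPM of Cd86. As no comparison between the tissues includes them, the tumour myeloid levels of Cd274 leave out 633 UMIs in 660 unnamed cells, 19.9% of the gene's UMIs kept in that library.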

How the results depend on the processing

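Of 623 recomputed levels 549 stayed inside the main interval, as did 255 of 279 recomputed ratios, and 41 of 47 counts stayed within 1.5 times. Among the highest levels, Ctla4 in tumour regulatory T cells was 734 CPM with each library clustered on its own and 1650 as a mean of single-cell values, and Tox in node regulatory T cells was 200.3 CPM as such a mean. Members past 2-fold in regulatory T cells numbered 3 with a mitochondrial limit of 10% and 2 (of 5 counted) with cells gated one by one, in place of 5. In mature dendritic cells they numbered 6 of 9 without a count minimum, in place of 3. In monocytes they numbered 4 with each library clustered on its own, 2 without a count minimum and 4 at a limit of 1.5-fold, in place of 1. No share of all genes is given beside these counts. Of the ratios past 2-fold, Cd86 in regulatory T cells changed sign, to -0.18 with the mitochondrial limit of 10% from 1.19, a value that rests on 0 tumour UMIs. Of those within 2-fold, Ctla4 in regulatory T cells (0.19) and Cd86 in monocytes (-0.17) changed sign with each library clustered on its own, and Tigit and Tox in regulatory T cells and Pdcd1lg2 in neutrophils did so under at least 1 alternative. Without a count minimum or at a lower limit more genes are called by construction, and for the rest the cause was not tested. Of 182 recomputed shares 140 left their interval, as shares follow the depth kept. No paired analysis was possible because each tissue had 1 library and no cell is assigned to a mouse. Several compared groups were small, among them 39 tumour regulatory T cells, 38 node neutrophils, 32 tumour mature dendritic cells and 29 node monocytes.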

Other observations

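The unnamed tumour myeloid clusters differed from each other in the ligand genes. A cluster of 356 cells led by Ptgs2, Tnf and Rsad2 had 376 [336 to 419] CPM of Cd274 and 23.0 CPM of Pdcd1lg2. A cluster of 97 cells led by Mgl2, Plet1 and H2-Ab1 had 170 [130 to 218] CPM of Cd274 and 120 CPM of Pdcd1lg2, as well as 27.8 [13.3 to 51.2] CPM of Lag3 from 10 UMIs.

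Ligand genes were also counted in T cells at low levels. The node CD4 subcluster led by Tnfsf8 had 65.1 [47.5 to 87.1] CPM of Cd274 and 55.0 CPM of Pdcd1lg2, where the 2 other conventional CD4 subclusters had 8.37 and 22.0 CPM of Cd274. NK cells had no Pdcd1 UMI in 34 tumour and 66 node cells, which allows up to 33.3 and 15.3 CPM. The tumour held 8 conventional CD4 T cells and 9 dendritic cells called neither mature nor plasmacytoid in groups too small to compare. The former had 4 Pdcd1 and 10 Ctla4 UMIs, and their number depended on the grouping. With T cells gated one by one, the tumour held 50 conventional CD4, 343 CD8 and 155 unresolved T cells.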
